A study of Mus musculus with 6 samples.

Results

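Chemokine ligands and receptors were followed in the skin of mice kept under chronic restraint stress (CRS) and of control mice (CON). Genes were taken by symbol, namely protein-coding Ccl, Cxcl, Ccr and Cxcr genes with a number and an optional letter, together with Cx3cl1, Cx3cr1, Xcl1 and Xcr1, provided that 1 or more of the libraries held a value above 0. This gave 53 genes, 35 ligands and 18 receptors, out of 42439 gene IDs with such a value and 54146 IDs in all. Total RNA of whole skin had been sequenced after 12 weeks in 6 libraries, 3 of CRS mice and 3 of CON mice. Restraint, in which an animal is confined repeatedly, is a model of psychological stress, and no other treatment or allele is named for either group. The sources used here name no strain, sex, age or body site. The labels do not say that each library came from another mouse, although the design text counts 3 mice per group, so p-values measure the spread between these samples.

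Chemokines are small secreted proteins that form gradients on matrix and cell surfaces and draw leukocytes along them. Each acts on 1 or more receptors that span the membrane and signal through inhibitory G proteins. The families are named after the spacing of the first cysteines (CC, CXC, CX3C and XC). In skin, keratinocytes, fibroblasts, endothelium and resident macrophages make ligands that place Langerhans cells, T cells and mast cells at rest and bring in neutrophils and monocytes after injury.

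The values are FPKM (fragments scaled to exon length and library size), a level per length. Depth ran from 19.2 to 25.7 M fragments in CRS libraries and from 13.3 to 19.9 M in CON libraries, as recovered from the steps of the FPKM values. Keratinocyte markers, the check of the tissue, summed to 2394 to 3123 FPKM in CRS libraries and 2009 to 2302 FPKM in CON libraries, and all 8 were found. These sums did not overlap between the groups, and neither did those of melanocyte markers, at 173 to 202 FPKM in CRS libraries and 257 to 295 FPKM in CON libraries. Their part in the results was not tested. CON replicate 1 stood apart, with 15.3% of its fragments from mitochondrially encoded genes (2.501% to 3.15% in CRS libraries, 3.91% and 4.19% in the other CON libraries). It was also highest in skeletal muscle markers and lowest in summed macrophage, dendritic cell and fibroblast markers, and it held Xist at 2.80 FPKM, against at most 0.168 FPKM in the other libraries, while every library held Y-linked transcripts. CRS replicate 2 stood apart by gene length: its median deviation from the gene means was -0.84 (log2) for protein-coding genes under 1000 nt and 0.57 for those over 4000 nt. CRS replicates 1 and 3 went the other way, at 0.695 and 0.293 for the short genes and -0.347 and -0.516 for the long ones. In CON libraries these medians lay between -0.163 and 0.234. Comparisons between genes of unlike length, ligand shares and totals among them, are therefore less sure in the CRS libraries, most of all in CRS replicate 2. Values without CON replicate 1 or CRS replicate 2 are given beside many of the results. The range over all libraries left out in turn stands with the alternatives for each described gene. In whole tissue, fewer cells of a type and less RNA per cell cannot be told apart.

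No chemokine gene passed the test between CRS and CON. Of the 53 genes, 49 averaged 0.1 FPKM or more across all libraries and were tested, 33 ligands and 16 receptors. The remaining 4 were Ccl21a, Ccr8, Cxcl15 and Cxcr1, none above 0.165 FPKM in any library. With limma on log2(FPKM + 0.1) and Benjamini-Hochberg adjustment over all 28389 genes tested, 0 of the 49 had an adjusted p under 0.05, and the background was likewise 0% of genes higher and 0% lower. Before adjustment, p was under 0.05 for 1 of the 49, a gene lower in CRS skin, where 0.919% of all genes were higher and 1.63% lower (2.55% in either direction). With limma voom on the recovered fragments, 0 of the 49 had such a p, and over all genes 218 were higher and 338 lower. In 2 ligands (Ccl22 and Cxcl16) every CRS value lay above every CON value, and in 2 (Ccl4 and Cxcl1) every CRS value lay below. Across all genes tested these shares were 1.65% higher and 5.19% lower. Groups without overlap were thus found for 4 of 49 chemokine genes, close to the 6.84% of all genes.

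With all libraries, the chemokine genes as a set lay close to all other genes, but this depended on single CON libraries. Their median log2 fold change was -0.13 against -0.20 for all genes tested, with 20 above 0 and 29 under 0, where 32.2% of all genes were above 0. Under median-ratio scaling, which moved the median of all genes to 0.004, 28 were above 0 and 21 under 0. The median was -0.44 without CON replicate 1 (all genes -0.16), 0.027 without CON replicate 2 (all genes -0.26) and 0.038 without CON replicate 3 (all genes -0.19). Relative to all genes it was thus 0.064 as reported, -0.28 without CON replicate 1 and 0.29 without CON replicate 2. Standard errors of the fold changes ran from 0.31 to 0.89 (log2), with a median of 0.59, which is wide beside most of the differences.

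**Figure D1:**
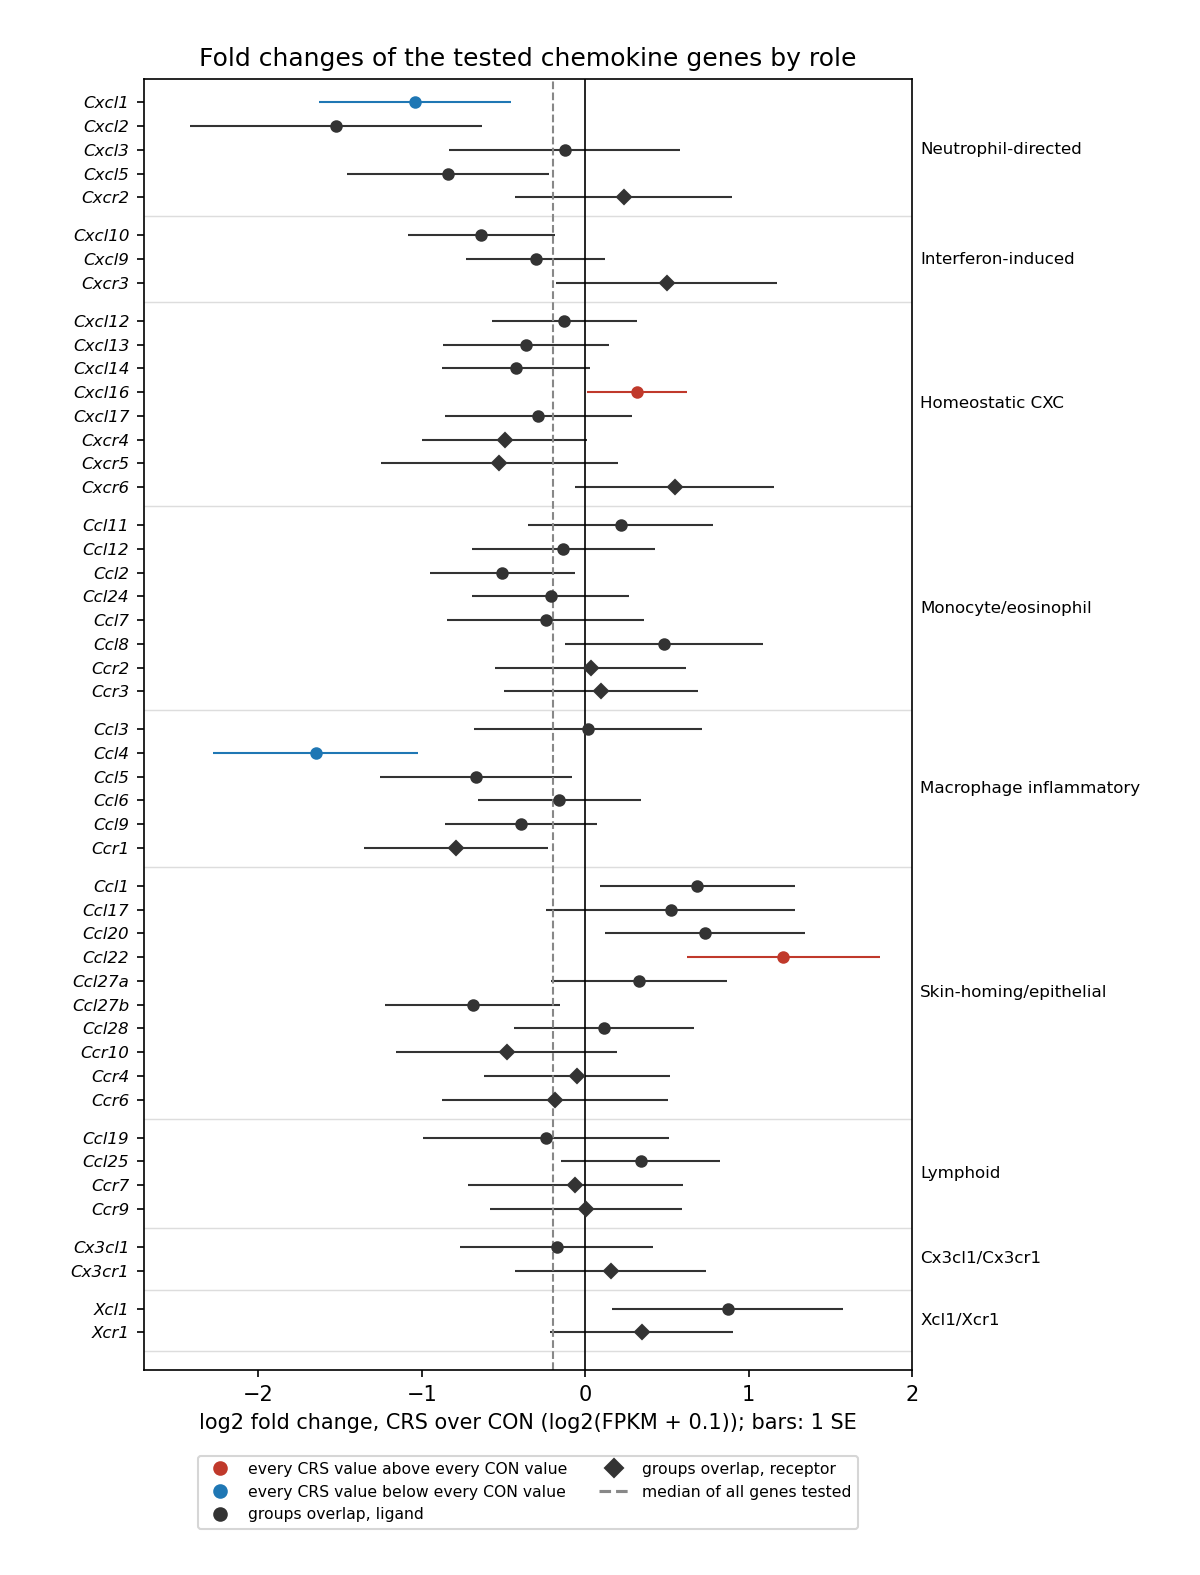
log2 fold changes (CRS over CON, on the log2(FPKM + 0.1) scale) of 48 of the 49 tested chemokine genes, grouped by role, with circles for ligands, diamonds for receptors and bars of 1 SE. Ccl22 and Cxcl16 are the ligands with all CRS values above all CON values, Ccl4 and Cxcl1 those with all CRS values below, and the dashed line marks the median of all genes tested (-0.20).

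A few ligands supplied most of the chemokine transcripts of skin in both groups. Ccl8, a CC ligand made by skin macrophages, stood at 213.2, 102.5 and 306.5 FPKM in CRS skin and at 64.3, 255.3 and 149.8 FPKM in CON skin. Cxcl14, an epithelial chemokine of healthy skin, stood at 30.6, 90.6 and 45.7 FPKM in CRS skin and at 84.2, 76.3 and 47.8 FPKM in CON skin. Both ranges overlapped widely, and Ccl8 was the most abundant ligand in every library except CON replicate 1, where Cxcl14 was.

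Together with Ccl6, a macrophage product, and Cxcl12, the stromal ligand of Cxcr4, these genes made up 78.2%, 78.8% and 83.2% of the summed ligand FPKM in CRS libraries and 76.5%, 78.3% and 75.4% in CON libraries. The balance within that sum varied far more from library to library. Ccl8 held 58.0%, 33.4% and 63.4% of it in CRS libraries and 27.1%, 48.2% and 46.5% in CON libraries. The share of Ccl8 was lowest in the libraries that stood apart, CON replicate 1 and CRS replicate 2, where Cxcl14 held 35.5% and 29.5%. Ccl8 is a short gene (511 nt), and the part of length in its share was not tested.

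**Figure D2:**
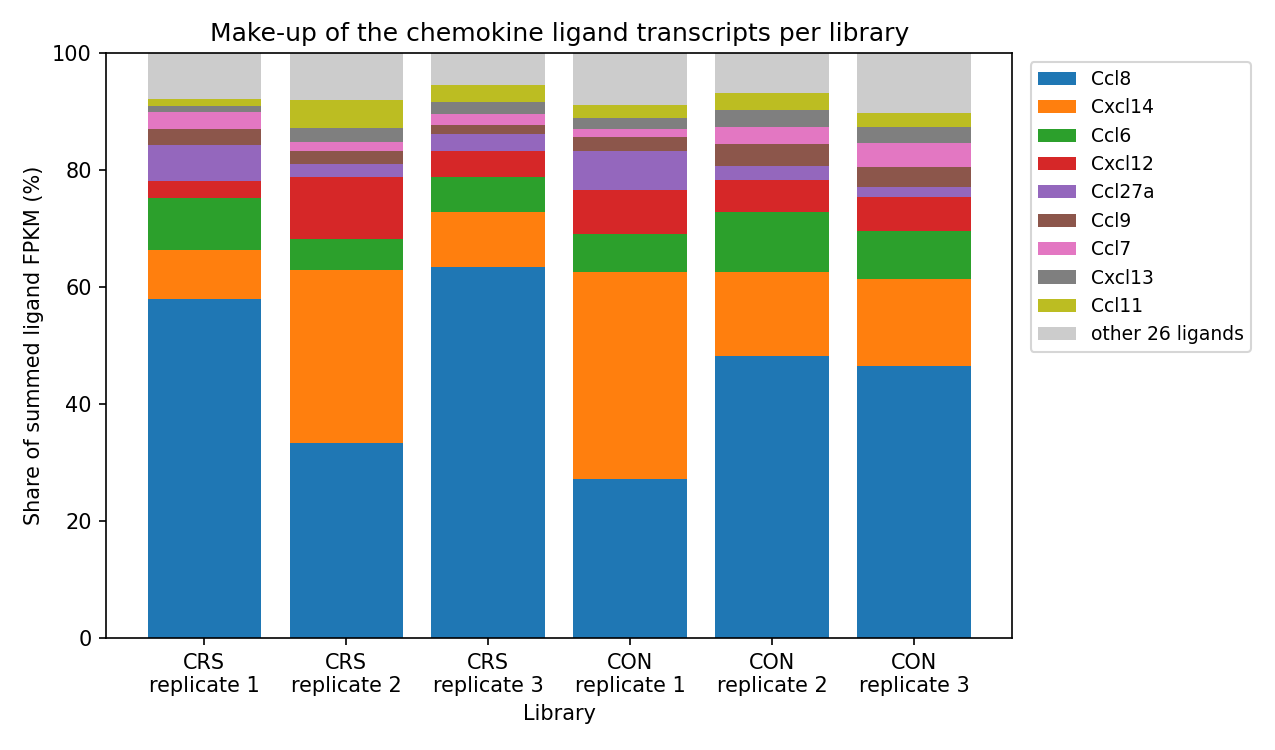
Share of the summed FPKM of the 35 ligands (%) held by the leading ligands in each library, CRS libraries at the left and CON libraries at the right. Ccl8, Cxcl14, Ccl6 and Cxcl12 together make up 75.4% to 83.2% in every library, while Ccl8 alone runs from 27.1% to 63.4%.

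The summed ligands came to 386 ± 89.5 FPKM in CRS skin and 363 ± 150 FPKM in CON skin (SD, n = 3 each). The summed receptors were much lower in every library, at 8.32, 17.3 and 8.13 FPKM in CRS skin and 7.499, 14.5 and 13.6 FPKM in CON skin. The highest receptor total was that of CRS replicate 2, the library high in genes over 4000 nt. Of the ligands 21 reached a group mean of 1 FPKM, against 4 receptors (Cxcr4, Ccr2, Cxcr6 and Ccr4). The ligand total and the receptor total each overlapped between the groups.

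**Figure D3:**
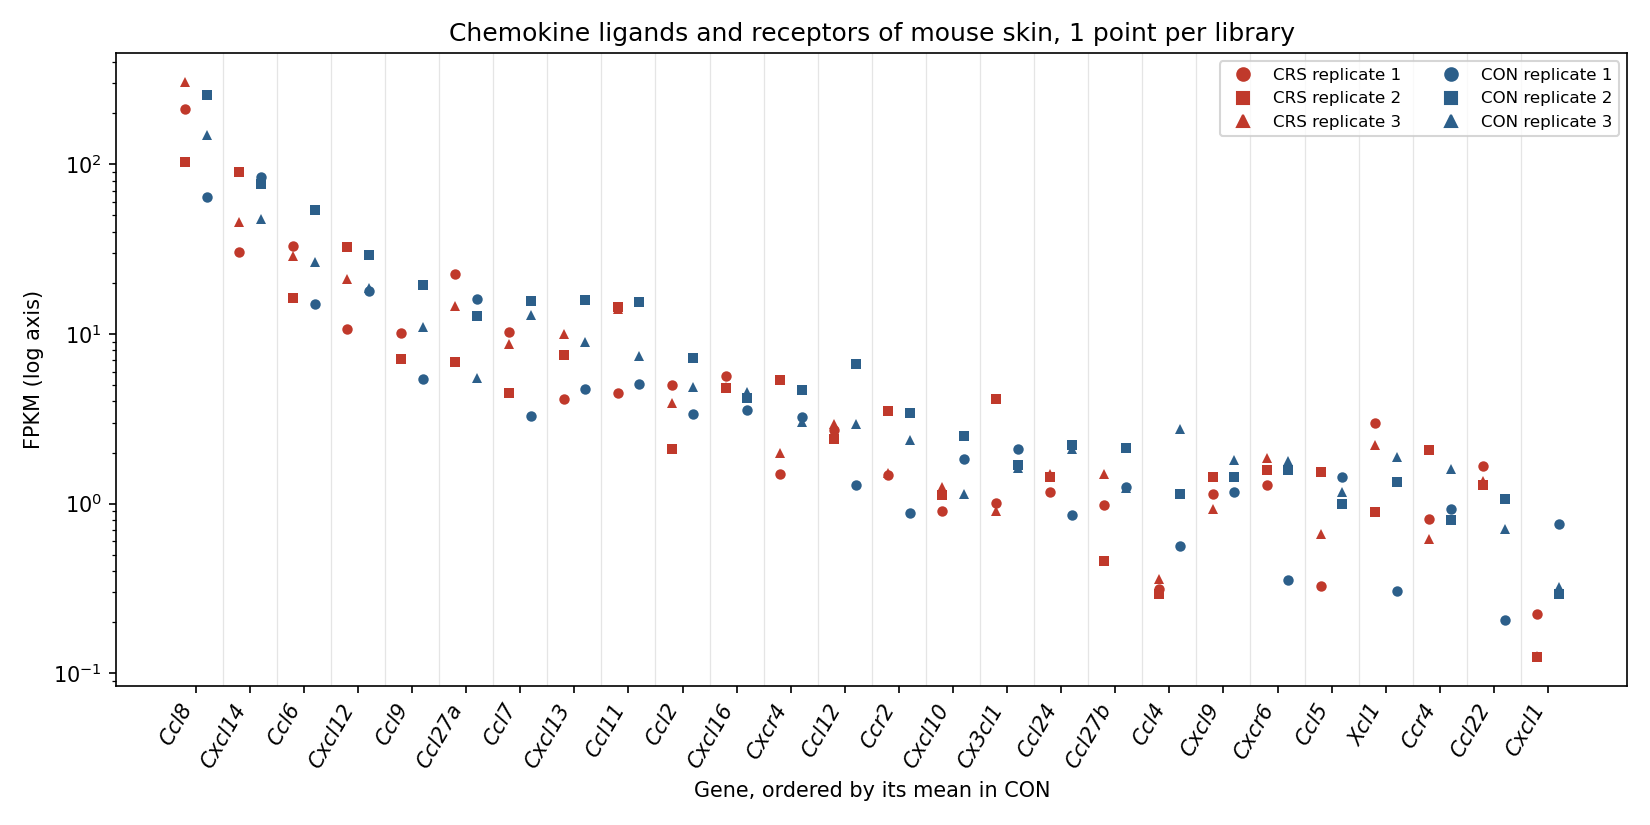
FPKM (log axis) of the 26 chemokine genes with a group mean of at least 1 FPKM or with groups that do not overlap, 1 point per library, CRS points left of CON points for each gene. Levels run from Ccl8 at 64.3 to 306.5 FPKM down to Cxcl1 under 1 FPKM, and the groups overlap for 22 of the 26 genes.

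The ligands that draw neutrophils through Cxcr2 were scarce, and their fold changes were all under 0, where 67.8% of all genes tested were under 0. Cxcl1, made by keratinocytes and fibroblasts on inflammatory signals, stood at 0.222, 0.124 and 0.127 FPKM in CRS skin and at 0.762, 0.294 and 0.321 FPKM in CON skin. The groups did not overlap, but these values rest on 8, 6 and 6 fragments in CRS libraries and 27, 11 and 8 in CON libraries. On the log2 scale the difference was -1.04 (SE 0.59, limma adjusted p = 0.9999, exact permutation p = 0.1, two-sided and the smallest that 3 against 3 values allow). It was -0.68 without CON replicate 1, which held the highest value. Cxcl2, a close relative described here because 1 library stood out, was at 0.050, 0.094 and 0.096 FPKM in CRS skin and 0.051, 0.388 and 1.75 FPKM in CON skin. Its highest value, in CON replicate 3, came from 48 fragments, while CON replicate 1 held 2, so the groups overlapped. On the log2 scale the difference was -1.53 (SE 0.89) for Cxcl2, -0.84 (SE 0.62) for Cxcl5 and -0.12 (SE 0.71) for Cxcl3. The median of the 4 ligands was -0.94 (-0.74 relative to all genes). Under median-ratio scaling, without CON replicate 3 or without CRS replicate 2, 3 of the 4 were under 0. For their receptor Cxcr2, carried by neutrophils, it was 0.24 (SE 0.66). Of the neutrophil markers, Ly6g was listed at 0 in every CRS library and in CON replicate 2 and was 0.168 and 0.080 FPKM in the other CON libraries. Mpo, Elane and Ngp were at most 0.173 FPKM in any library. Csf3r stood at 0.432, 0.862 and 0.231 FPKM in CRS libraries and 0.293, 0.431 and 0.438 FPKM in CON libraries. Camp stood at 0.823, 0.256 and 1.204 FPKM in CRS libraries and 0.279, 0.463 and 0.496 FPKM in CON libraries. Of the 9 markers 6 had a higher mean in CRS skin. The summed list, which holds Cxcr2 itself, was 22.4 to 137.3 FPKM in CRS libraries and 20.5 to 78.7 FPKM in CON libraries, nearly all of it S100a8 and S100a9, which keratinocytes can also make. The part of these markers in the ligand values was not tested.

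The promoters of Cxcl1, Cxcl2 and Cxcl3 are shown because these neighbouring genes share 1 sequence near the start: the last 120 bases before the RefSeq start (GRCm38.p6), 5′ to 3′ on the gene's strand, with matches to the NF-kappaB consensus (kappaB) in capitals. They lie on the plus strand at chr5:90891125-90891244 (Cxcl1), chr5:90903779-90903898 (Cxcl2) and chr5:90785981-90786100 (Cxcl3).
Cxcl1: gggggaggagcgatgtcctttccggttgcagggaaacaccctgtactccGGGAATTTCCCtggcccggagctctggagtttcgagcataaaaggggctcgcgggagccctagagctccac
Cxcl2: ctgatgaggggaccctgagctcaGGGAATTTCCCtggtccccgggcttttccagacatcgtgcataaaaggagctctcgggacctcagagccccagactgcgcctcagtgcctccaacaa
Cxcl3: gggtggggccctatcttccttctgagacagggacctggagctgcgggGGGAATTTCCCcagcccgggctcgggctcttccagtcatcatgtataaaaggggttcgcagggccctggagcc
The same letters, GGGAATTTCC, begin at base -71 in Cxcl1, -97 in Cxcl2 and -73 in Cxcl3, counted from -1 just before the start, and each match is read on both strands with an overlap.

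In the 250 bases before the start, 10 of the 40 chemokine genes with a RefSeq promoter held a kappaB match (25%), against 8.23% of all 27025 genes, both strands searched. They were Ccl1, Ccl20, Ccl9, Ccr1, Ccr3, Ccr6, Cxcl1, Cxcl2, Cxcl3 and Cxcl10. An AP-1 match (TGANTCA) was held by 6 of the 40 (15%, against 7.82% of all genes) and an interferon element (GAAANNGAAA) by 3 (7.5%, against 3.46%). A glucocorticoid element (GNACANNNTGTNC) was held by 0 of the 40, against 0.44% of all genes. These are counts of letters in a window and not of bound sites. Among those with no promoter entry were Ccl2, Ccl4, Ccl5, Ccl7, Ccl11, Ccl24, Cxcl5, Cxcl16, Cxcl17, Ccr7, Ccr10 and Cxcr5.

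The interferon-induced ligands of Cxcr3, the receptor of activated T cells, were low in both groups. Cxcl10 stood at 0.90, 1.12 and 1.25 FPKM in CRS skin and at 1.83, 2.495 and 1.14 FPKM in CON skin. The highest CRS value exceeded the lowest CON value, at a log2 fold change of -0.64 (SE 0.45). Art3 overlaps its exons on the opposite strand. Cxcl9 averaged 1.17 ± 0.26 FPKM in CRS skin and 1.47 ± 0.31 FPKM in CON skin (SD, n = 3 each), with a log2 fold change of -0.30 (SE 0.43). Cxcr3 averaged 0.343 ± 0.325 FPKM in CRS skin and 0.175 ± 0.085 FPKM in CON skin, its highest value being 0.719 FPKM in CRS replicate 2. Cxcl11, which the annotation calls a polymorphic pseudogene, is not among the 53.

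The Cxcl10 promoter is shown because, of the chemokine promoters searched, it alone held kappaB, AP-1 and interferon element matches together. These are the 250 bases at chr5:92348890-92349139 on the minus strand (GRCm38.p6), with the interferon element, both kappaB matches and the AP-1 match in capitals in that order.
Cxcl10: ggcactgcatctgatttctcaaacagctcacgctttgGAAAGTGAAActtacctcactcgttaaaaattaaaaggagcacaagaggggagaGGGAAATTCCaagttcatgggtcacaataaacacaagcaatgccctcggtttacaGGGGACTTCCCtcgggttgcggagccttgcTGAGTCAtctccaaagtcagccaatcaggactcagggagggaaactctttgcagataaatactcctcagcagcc
The interferon element begins at base -213 and the AP-1 match at -74, where the second kappaB stretch joins overlapping matches that begin at -104 and -103.

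Genes upstream of these ligands were counted as lists. All 13 interferon response genes had fold changes under 0, where 67.8% of all genes tested were under 0, and their median was -0.66. Of these, 6 had an unadjusted p under 0.05 (1.63% of all genes) and 7 had no overlap between the groups (5.19% of all genes). Rsad2, an antiviral protein gene, stood at 1.04, 1.00 and 0.513 FPKM in CRS skin and 4.97, 2.28 and 2.99 FPKM in CON skin. Ifit1, another interferon-induced gene, averaged 1.14 ± 0.73 FPKM in CRS skin and 3.49 ± 1.02 FPKM in CON skin. No gene of the list passed the adjusted threshold. The 8 NF-kappaB genes were all under 0, but their median of -0.24 lay close to that of all genes tested (-0.20). None of the 8 had an unadjusted p under 0.05 or groups without overlap. The lowest p values belonged to the inhibitor Nfkbia (log2 fold change -0.77, SE 0.41) and to Nfkbiz (-0.64, SE 0.46).

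Of 8 inducing cytokines tested, 2 were above 0 and 6 under 0. Tnf, which induces many chemokines, stood at 0.476, 0.877 and 0.581 FPKM in CRS skin and 1.13, 0.888 and 1.42 FPKM in CON skin, without overlap by a narrow margin. Il1a, an interleukin 1 of keratinocytes, was lowest in CON replicate 1, and its log2 fold change was 0.85 (SE 0.45). Neither passed the adjusted threshold.

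Among the homeostatic CXC genes, Cxcl16 had all CRS values above all CON values. Cxcl16 is a membrane-bound ligand that is also a scavenger receptor, and it binds Cxcr6 of resident T cells. It stood at 5.65, 4.79 and 4.86 FPKM in CRS skin and at 3.55, 4.17 and 4.53 FPKM in CON skin. The separation was narrow but the gene was well covered, with 328 to 372 fragments in CRS libraries and 182 to 251 in CON libraries. The difference was small, a log2 fold change of 0.32 (SE 0.31, limma adjusted p = 0.9999, exact permutation p = 0.1), and stayed between 0.22 and 0.39 with each library left out. It was 0.55 under median-ratio scaling. Zmynd15 overlaps its exons on the opposite strand, and 16.9% of its 50-base stretches also occur there, so some fragments may belong to that gene. Cxcr6 stood at 1.29, 1.57 and 1.85 FPKM in CRS skin and 0.356, 1.58 and 1.79 FPKM in CON skin, where only CON replicate 1 lay below the CRS range. Its log2 fold change of 0.55 (SE 0.61) turned to -0.11 without that library.

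Cxcl12, which holds leukocytes and stem cells in their niches, stood at 10.7, 32.6 and 21.2 FPKM in CRS skin and 17.8, 29.2 and 18.6 FPKM in CON skin. Its receptor Cxcr4 stood at 1.496, 5.35 and 1.98 FPKM in CRS skin and 3.25, 4.69 and 3.04 FPKM in CON skin. For both genes CRS replicate 2 was the highest library and CRS replicate 1 the lowest, so that the CON values lay inside the CRS range. Cxcl12 is a long gene (8176 nt) and Cxcr4 has 1808 nt, and the part of length was not tested. The log2 fold change was -0.13 (SE 0.44) for Cxcl12 and -0.49 (SE 0.51) for Cxcr4, and that of Cxcr4 was -1.02 without CRS replicate 2 and -0.13 without CRS replicate 1. Cxcl13, a B cell attractant, averaged 7.25 ± 2.95 FPKM in CRS skin and 9.88 ± 5.65 FPKM in CON skin (SD, n = 3 each). Cxcl14 had a log2 fold change of -0.43 (SE 0.45), which was -0.85 without CRS replicate 2, its highest library, and -0.068 without CRS replicate 1, its lowest. Cxcl17 and the receptor Cxcr5 were between 0.012 and 0.406 FPKM in every library.

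The monocyte and eosinophil ligands had fold changes on both sides of 0, 2 of 6 above 0, and all overlapped between the groups. Ccl8 had a log2 fold change of 0.48 (SE 0.60), which was -0.053 without CON replicate 1. Ccl2, the main ligand of Ccr2 on monocytes, stood at 4.98, 2.08 and 3.90 FPKM in CRS skin and 3.39, 7.23 and 4.89 FPKM in CON skin, a log2 fold change of -0.51 (SE 0.44) that was -0.16 without CRS replicate 2 and -0.77 without CON replicate 1. Ccl7, another Ccr2 ligand, stood at 10.3, 4.46 and 8.72 FPKM in CRS skin and 3.30, 15.5 and 13.0 FPKM in CON skin. Within CON, replicate 1 was lowest and replicate 2 highest for Ccl2, Ccl7, Ccl8, Ccl11, Ccl12, Ccl24 and Ccr2. Within CRS they shared no order: replicate 2 was lowest for Ccl2, Ccl7, Ccl8 and Ccl12 and highest for Ccl11 and Ccr2. Summed macrophage markers had the same order within CON, at 295, 376 and 423 FPKM in CRS libraries and 161, 476 and 284 FPKM in CON libraries, and their part in these values was not tested.

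Ccl11 (eotaxin), which draws eosinophils through Ccr3, averaged 10.98 ± 5.65 FPKM in CRS skin and 9.27 ± 5.40 FPKM in CON skin (SD, n = 3 each). Ccl12 averaged 2.69 ± 0.28 FPKM in CRS skin and 3.62 ± 2.74 FPKM in CON skin, a wider spread in CON that came from 1.28 FPKM in replicate 1 and 6.63 FPKM in replicate 2. Ccl24, a further eosinophil attractant, averaged 1.37 ± 0.18 FPKM in CRS skin and 1.72 ± 0.75 FPKM in CON skin. Ccr2 averaged 2.17 ± 1.18 FPKM in CRS skin and 2.23 ± 1.28 FPKM in CON skin, a log2 fold change of 0.033 (SE 0.58) that was -0.50 without CON replicate 1. Ccr3 itself was at most 0.254 FPKM. For none of these genes was the difference larger than the spread between libraries.

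Ccl4 had the lowest unadjusted p of all chemokine genes. Ccl4 (macrophage inflammatory protein 1 beta) is released by activated macrophages, NK cells and T cells. It stood at 0.315, 0.295 and 0.361 FPKM in CRS skin and at 0.561, 1.14 and 2.74 FPKM in CON skin. The CRS values were close together and all below the CON values, which spread widely among themselves. They rest on 4, 5 and 6 fragments in CRS libraries and on 7, 15 and 24 in CON libraries. On the log2 scale the difference was -1.65 (SE 0.63, limma unadjusted p = 0.0288, adjusted p = 0.9999), with an exact permutation p of 0.1. It was -1.10 without CON replicate 3 (unadjusted p = 0.139), and over the alternatives the adjusted p ran from 0.0952 to 1.0. With voom on recovered fragments the unadjusted p was 0.0692.

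Its neighbour in the family, Ccl3, a ligand of Ccr1, stood at 0.679, 0.457 and 0.363 FPKM in CRS skin and 0.207, 0.328 and 1.38 FPKM in CON skin, a log2 fold change of 0.017 (SE 0.70). CON replicate 3 was the highest library for both Ccl3 and Ccl4, as it was for Cxcl2. Ccl5, a T cell product, averaged 0.842 ± 0.627 FPKM in CRS skin and 1.20 ± 0.22 FPKM in CON skin (SD, n = 3 each). Its log2 fold change of -0.67 (SE 0.59) was -1.18 without CRS replicate 2, its highest library, and -0.21 without CRS replicate 1, its lowest. Ccl6 stood at 32.9, 16.2 and 28.8 FPKM in CRS skin and 15.1, 53.5 and 26.5 FPKM in CON skin, and Ccl9 averaged 8.13 ± 1.74 FPKM in CRS skin and 12.0 ± 7.11 FPKM in CON skin. Both are made by myeloid cells in mice, and both were lowest in CON replicate 1 and highest in CON replicate 2. The receptor Ccr1, carried by monocytes and macrophages, was likewise under 0, at -0.79 (SE 0.56) on the log2 scale.

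The CC ligands of skin-homing T cells and of epithelia had fold changes above 0 in 6 of 7 genes, where 32.2% of all genes tested were above 0. Their median was 0.52 (0.72 relative to all genes). Ccl1, Ccl17, Ccl20 and Ccl28 rested on 2 to 27 fragments in each library, and with a filter of 1 FPKM 2 of 3 ligands were above 0. The count was 6 of 7 also under both other scalings, where 50.4% (median-ratio) and 27.0% of all genes were above 0. It was 5 of 7 with array weights and without CON replicate 2, CON replicate 3, CRS replicate 1 or CRS replicate 2. The median itself was 0.25 without CRS replicate 1 or CRS replicate 3 and 0.97 without CRS replicate 2. Ccl22, made by dendritic cells and macrophages and read by Ccr4 of skin-homing and regulatory T cells, stood at 1.66, 1.29 and 1.37 FPKM in CRS skin and at 0.205, 1.06 and 0.712 FPKM in CON skin. The groups did not overlap, with 74, 77 and 80 fragments in CRS libraries and 9, 49 and 22 in CON libraries. On the log2 scale the difference was 1.21 (SE 0.59, limma unadjusted p = 0.0719, adjusted p = 0.9999), with an exact permutation p of 0.1, and it was 0.66 without CON replicate 1. Summed Langerhans and dendritic cell markers were likewise lowest in CON replicate 1, at 318, 361 and 401 FPKM in CRS libraries and 123.04, 431 and 289 FPKM in CON libraries, and the Langerhans cell marker Cd207 was 4.17, 3.63 and 4.88 FPKM in CRS libraries and 0.834, 4.58 and 4.15 FPKM in CON libraries. Their part in the Ccl22 values was not tested.

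The 250 bases before the Ccl22 start are shown because Ccl22 had the largest positive fold change of the chemokine genes. They lie at chr8:94745434-94745683 on the plus strand (GRCm38.p6) and held none of the motifs searched, so all letters are lower case.
Ccl22: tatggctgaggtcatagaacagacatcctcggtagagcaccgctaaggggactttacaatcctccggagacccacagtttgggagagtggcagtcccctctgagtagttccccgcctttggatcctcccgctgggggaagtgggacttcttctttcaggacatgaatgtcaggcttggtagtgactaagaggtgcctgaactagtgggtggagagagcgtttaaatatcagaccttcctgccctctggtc

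Ccl17, which lies beside Ccl22 and shares its receptor, stood at 1.21, 0.151 and 1.39 FPKM in CRS skin and 0.515, 0.293 and 0.586 FPKM in CON skin. CRS replicate 2 was the lowest of all 6 libraries, with 2 fragments, while the other CRS libraries were the highest. Ccl17 is a short gene (514 nt), and the part of length was not tested. Ccl20, the keratinocyte ligand of Ccr6, stood at 0.988, 0.246 and 0.586 FPKM in CRS skin and 0.298, 0.353 and 0.212 FPKM in CON skin, a log2 fold change of 0.73 (SE 0.61) in which CRS replicate 2 lay inside the CON range. Ccl1, the ligand of Ccr8, was at most 0.373 FPKM, with a log2 fold change of 0.69 (SE 0.60). Ccr4 stood at 0.807, 2.07 and 0.616 FPKM in CRS skin and 0.923, 0.795 and 1.61 FPKM in CON skin. The receptors had fold changes under 0: the log2 fold change was -0.049 (SE 0.57) for Ccr4, -0.19 (SE 0.69) for Ccr6 and -0.48 (SE 0.68) for Ccr10.

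Ccl27a, the keratinocyte ligand that guides T cells through Ccr10, stood at 22.5, 6.80 and 14.6 FPKM in CRS skin and 16.0, 12.8 and 5.48 FPKM in CON skin. Its log2 fold change was 0.33 (SE 0.54), which turned to -0.13 without CON replicate 3 and -0.062 without CRS replicate 1. Ccl27b averaged 0.977 ± 0.518 FPKM in CRS skin and 1.54 ± 0.51 FPKM in CON skin (SD, n = 3 each), and its log2 fold change of -0.69 (SE 0.53) was -0.28 without CRS replicate 2. Both levels are uncertain, since 44.98% of the 50-base stretches of Ccl27a and 98.1% of those of Ccl27b occur in other genes, mostly copies of the same ligand, and Il11ra1 overlaps Ccl27a on the opposite strand. Ccl28, the mucosal ligand of Ccr10, was at most 0.185 FPKM.

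The lymphoid ligands could be read only in part. Ccl19 and Ccl21a guide dendritic cells and T cells to lymph nodes through Ccr7. Ccl21a was listed at 0 in 5 libraries and rested on 1 fragment in the other, and Ccl21b was listed at 0 in all. Of their 50-base stretches 71.6% and 100% occur in other genes, so these levels say little about the amount of transcript. Ccl19, with 52.0% of its stretches shared, was at most 0.260 FPKM. Ccl25, better known from thymus and gut, rested on 91 to 206 fragments in CRS libraries and 58 to 107 in CON libraries, and its log2 fold change was 0.34 (SE 0.49). Elavl1 overlaps the Ccl25 exons on the opposite strand, so some of these fragments may belong to that gene. The receptors Ccr7 (-0.061, SE 0.66) and Ccr9 (0.006, SE 0.59) were near 0. Of the 50-base stretches of Ccr9 20.1% occur in other genes. Gm17200 overlaps the Ccr9 exons on the same strand, and AC165425.1 and Slc6a20a overlap them on the opposite strand.

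Cx3cl1, a membrane-bound ligand that can be shed, stood at 1.006, 4.12 and 0.909 FPKM in CRS skin and 2.10, 1.69 and 1.63 FPKM in CON skin. All CON values lay between the lower CRS libraries and CRS replicate 2, and the log2 fold change of -0.18 (SE 0.59) was -0.84 without that library. Its receptor Cx3cr1, carried by macrophages and monocytes, was between 0.088 and 0.302 FPKM. Xcl1, released by NK cells and CD8 T cells, stood at 2.98, 0.892 and 2.20 FPKM in CRS skin and 0.303, 1.34 and 1.87 FPKM in CON skin. These values rest on 30, 12 and 29 fragments in CRS libraries and 3, 14 and 13 in CON libraries. Gm20743 overlaps the Xcl1 exons on the opposite strand, and 10.8% of the 50-base stretches of Xcl1 also occur there. At 523 nt Xcl1 is among the short genes, and the part of length was not tested. The log2 fold change of Xcl1 was 0.87 (SE 0.71), and it was 0.18 without CON replicate 1, or 1.35 with CRS replicate 2 left out. Its receptor Xcr1, which marks cross-presenting dendritic cells, was at most 0.517 FPKM, with a log2 fold change of 0.34 (SE 0.56). Summed T and NK cell markers, more than any other Trbc2, stood at 62.4, 21.2 and 45.8 FPKM in CRS libraries and 23.4, 43.5 and 41.3 FPKM in CON libraries. The sum had the order of Xcl1 within each group except between CON replicates 2 and 3, but its members did not all share it. Within CRS, replicate 2 was lowest for Trbc1, Trbc2, Cd3d, Cd3g and Nkg7 and highest for Cd3e, Cd4, Trac and Trdc. Replicate 3 was lowest for Cd8a and Ncr1. The part of these markers in the Xcl1 values was not tested.

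**Figure D4:**
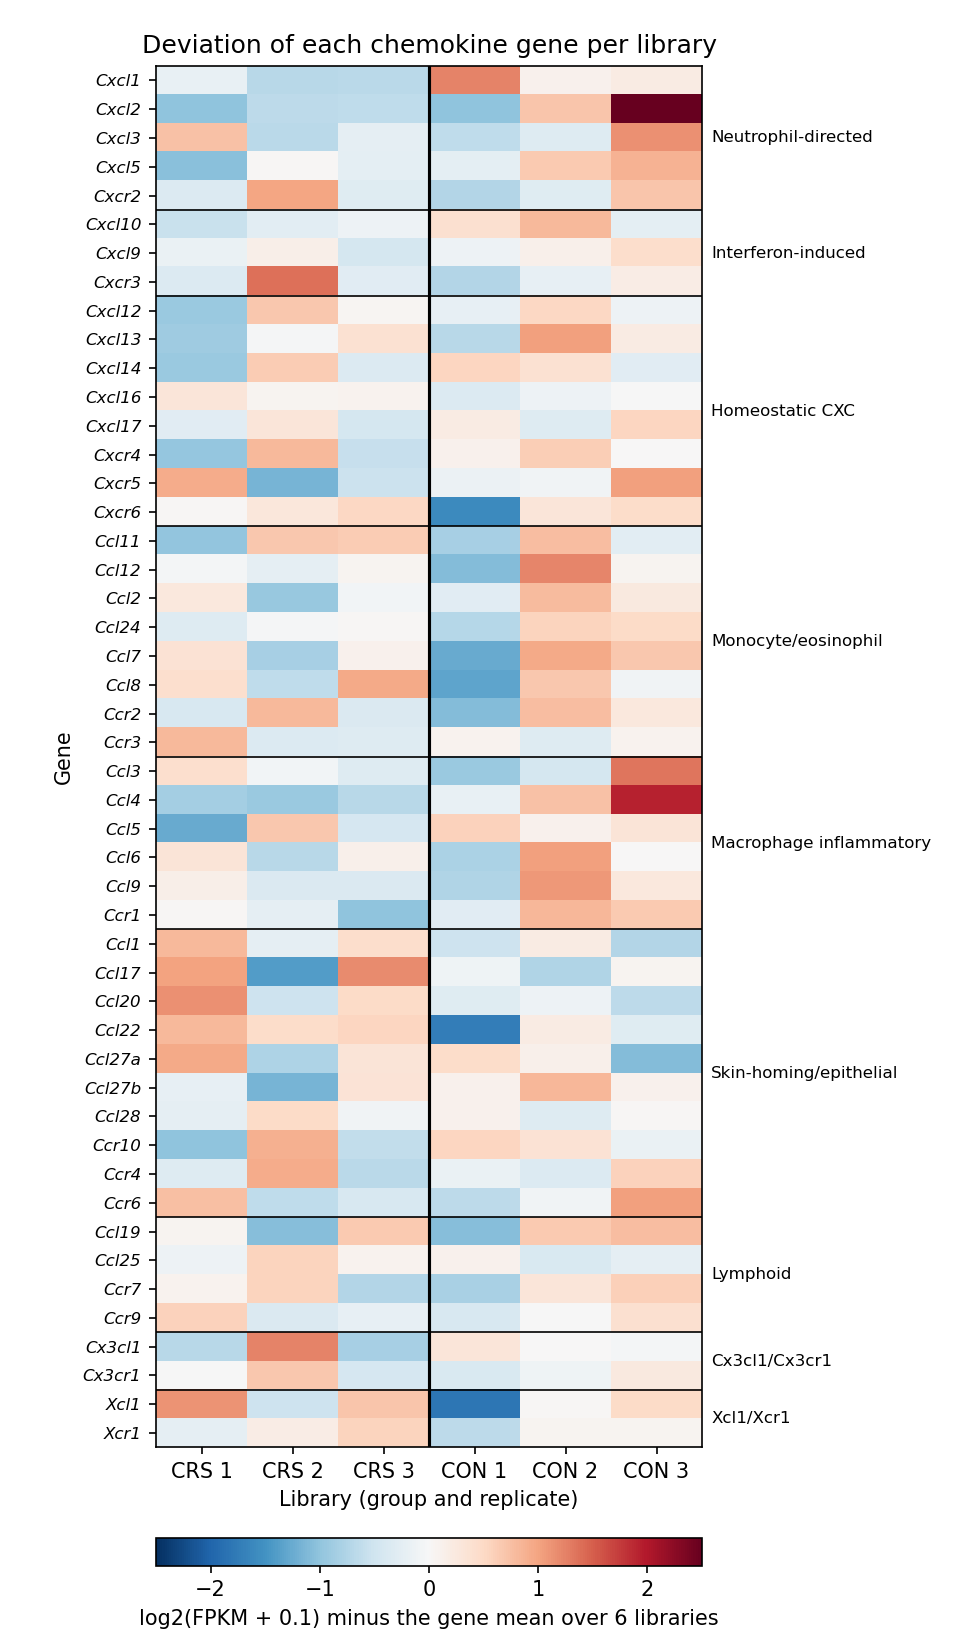
Deviation of log2(FPKM + 0.1) from the gene mean over the 6 libraries, for 48 of the 49 tested chemokine genes by role, CRS libraries left of the black line and CON libraries right of it. CON replicate 1 is the lowest library for 18 of the 49 genes and CRS replicate 2 the highest for 14, including 8 of the 16 receptors.

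Single libraries set much of the pattern. CON replicate 1 was the lowest of the 6 for 18 of the 49 genes and the highest for 1, while CRS replicate 2 was the highest for 14, among them 8 of the 16 receptors. The median deviation of the receptors was 0.62 (log2) in CRS replicate 2, against -0.12 and -0.41 in the other CRS libraries and -0.53, 0.033 and 0.39 in CON libraries. The tested receptor genes have a median exon length of 3071 nt and the ligand genes of 1795 nt. Both lengths lie between 1000 and 4000 nt, where the median deviation of protein-coding genes in CRS replicate 2 was 0.021. It was -0.835 for those under 1000 nt and 0.569 for those over 4000 nt. Ligands and receptors are not set against each other in that library, and the part of length in the receptor values was not tested.

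Other genes that handle chemokines or carry their signal gave no call. Of 6 atypical and accessory receptors 4 were above 0 and 2 under 0. Ackr1, which carries chemokines across venular endothelium, stood at 9.22, 5.78 and 4.66 FPKM in CRS skin and 3.43, 4.36 and 4.93 FPKM in CON skin. Ackr3, the scavenger of Cxcl12, stood at 3.68, 5.86 and 3.99 FPKM in CRS skin and 4.77, 7.16 and 5.71 FPKM in CON skin, and the groups overlapped for both. Of 28 signal transduction genes 13 were above 0 and 15 under 0, all 28 with overlapping groups, and the lowest p values belonged to Rap1a (-0.41, SE 0.30) and Gnaq (-0.52, SE 0.41). Of 9 genes of glycosaminoglycan presentation and ligand cleavage 3 were above 0 and 6 under 0, led by Ext1 (-0.39, SE 0.30) and Hs2st1 (-0.38, SE 0.37), and all 9 overlapped. The platelet chemokine genes lay on either side of 0, Pf4 at 0.34 (SE 0.67) and Ppbp at -0.59 (SE 0.64). None of these lists held a gene with an unadjusted p under 0.05.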

How the data were processed

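Total RNA of 6 skin libraries was sequenced. The authors deposited FPKM, 1 file per library with 54146 Ensembl IDs. HISAT2 is the aligner and GRCm39 the build named, per the submitters' processing notes. How fragments were counted, with which annotation and strand setting, is not given in the sources used here, so genes on opposite strands may share fragments. Symbols, types and exon lengths came from GENCODE M21 (GRCm38), which held 54079 of the IDs, and promoters from RefSeq (GRCm38.p6). In each library the product of FPKM and exon length moved in whole steps. Between 98.1% and 98.3% of the values up to 100 fragments lay within 0.05 of a whole number, which gave the depth and the fragments per gene.

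Genes averaging 0.1 FPKM or more were tested as log2(FPKM + 0.1), CRS against CON, with limma 3.58.1 (R 4.3.3), a mean-variance trend and Benjamini-Hochberg adjustment over 28389 genes at a threshold of 0.05. Fold changes understate low genes. Exact two-sided permutation tests of 3 against 3 cannot go below 0.1. The chemokine genes, the lists and the rule for those described (a group mean of at least 1 FPKM, no overlap or an unadjusted p under 0.05) were chosen with earlier results of these data known. All 26 genes this rule took are described, and others are named after their values were seen. Of the tested genes, 1 is counted but not reported here. Shared sequence was measured as the share of a gene's 50-base stretches found in transcripts of other genes. Alternatives changed the pseudocount, the filter, the scaling or the variance model, added array weights or a replicate block, used voom on recovered fragments, or left out each library; leaving out both CON replicate 1 and CRS replicate 2 was added after the data were seen. Python 3.11.15, pandas 2.3.3 and matplotlib 3.10.9 made tables and figures.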

Additional observations from a re-analysis of the deposited data

How the results depend on the processing

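The count of genes past the adjusted threshold was 0, over all genes and among the chemokine genes, in the reported fit and under all 17 alternatives. The smallest adjusted p of a described gene was 0.0952 (Ccl4, array weights). At an unadjusted p under 0.05 the count of chemokine genes, 1 as reported, was 0 with a filter of 1 FPKM (which removes Ccl4), 0 with voom, 2 under median-ratio scaling and 10 with array weights. It ran from 0 to 6 with each library left out, 6 being without CRS replicate 2, and was 6 without both CON replicate 1 and CRS replicate 2. The share of all genes rose in the same settings, from 2.55% as reported to 26.9% with array weights, 17.1% without CRS replicate 2 and 13.6% without both, so 10 and 6 of 49 lie near or under the background. The cause was not tested. The median of the chemokine genes ran from -0.44 to 0.038 with each library left out and was -0.43 without both libraries, beside -0.19 for all genes. Median-ratio scaling moved the median of all genes from -0.20 to 0.004.

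With the replicate number as a block, the count of chemokine genes at an unadjusted p under 0.05 was 1 and that past the adjusted threshold 0. Deviations of same-numbered libraries correlated at -0.29, -0.043 and 0.097 across genes, and CRS replicate 1 correlated best with CON replicate 3 (0.50). The deviations were taken from the mean of each group, which forces some of these correlations under 0. They therefore cannot show whether same-numbered samples were paired.

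Of the 26 described genes 12 kept their direction under every alternative run. Median-ratio scaling turned Ccl6 to 0.082, Ccl12 to 0.095, Ccl24 to 0.012, Ccr4 to 0.16, Cx3cl1 to 0.046 and Cxcl12 to 0.11, by its own shift of all genes. Ccr2 turned to -0.0001 with a pseudocount of 1, -0.049 when scaled without mitochondrial and muscle genes, -0.41 with array weights and -0.89 without both libraries. Without both, Ccl11 was at -0.43 and Cxcr6 at -0.12, while Ccl24 (-0.66), Ccl27a (1.10), Cxcl12 (-0.63) and Cxcl13 (-0.87) kept their sign. With each library left out, the log2 fold change ran from -0.14 to 0.77 for Ccl11, -0.71 to 0.44 for Ccl12, -0.62 to 0.012 for Ccl24, -0.13 to 0.79 for Ccl27a, -0.60 to 0.31 for Ccl6 and -0.93 to 0.17 for Ccl7. It ran from -0.053 to 0.94 for Ccl8, -0.86 to 0.050 for Ccl9, -0.50 to 0.43 for Ccr2, -0.53 to 0.28 for Ccr4 and -0.84 to 0.19 for Cx3cl1. It ran from -0.50 to 0.30 for Cxcl12, -0.80 to 0.061 for Cxcl13 and -0.11 to 0.92 for Cxcr6. Among the genes that kept their sign it ran from -1.03 to -0.28 for Ccl27b, -0.77 to -0.16 for Ccl2, -2.15 to -1.10 for Ccl4, -1.18 to -0.21 for Ccl5, -0.92 to -0.39 for Cxcl10 and -0.85 to -0.068 for Cxcl14. It ran from -1.25 to -0.68 for Cxcl1, -0.45 to -0.15 for Cxcl9, -1.02 to -0.13 for Cxcr4, 0.66 to 1.62 for Ccl22, 0.22 to 0.39 for Cxcl16 and 0.18 to 1.35 for Xcl1. Low genes rest on few fragments, and counting error alone is large for Ccl4, Cxcl1 and Cxcl2.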
